A study of Mus musculus with 6 samples.

Results

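Mpo, Elane, Prtn3 and Ctsg encode the enzymes that fill the primary (azurophil) granule of the neutrophil, the granule laid down at the promyelocyte stage. Elane (neutrophil elastase), Prtn3 (proteinase 3) and Ctsg (cathepsin G) are serine proteases. Mpo (myeloperoxidase) is a heme peroxidase of the same granule and not a protease, so the 4 are called granule enzymes here. They were taken by symbol from a gene table of 21761 genes, in which each symbol had 1 row. Their level was read in 6 RNA-seq libraries of mouse bone marrow cells in 3 groups: day 0, day 4 and day 7 of culture, with 2 libraries in each.

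All 6 libraries came from male C57BL/6J mice, and cultures were fed with medium conditioned by an SP2/0 line transfected to secrete Flt3L, the cytokine that drives dendritic cell development from marrow progenitors. Day 0 libraries (replicates II and III) are labelled bone marrow cells. Day 4 libraries (replicates I and II) are labelled common myeloid progenitors and day 7 libraries (replicates III and IV) bone marrow derived dendritic cells, but at both times every live cell was taken and no sort is given. The sources used here state neither the age of the mice nor whether replicates were separate animals or cultures. A p-value then reflects only how far these libraries spread, which may be technical.

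In a myeloid precursor the 4 genes are switched on together as the promyelocyte forms, under PU.1, MYB, RUNX1 and C/EBP factors, and they are silenced before the neutrophil is mature, so the mature cell carries the proteins with little of the mRNA. The 3 proteases are made as inactive proenzymes, are trimmed at the amino end by cathepsin C (Ctsc) and are held in the granule on the proteoglycan serglycin (Srgn). Mutations of ELANE cause cyclic and severe congenital neutropenia in humans.

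Prtn3 and Elane are direct neighbours on chromosome 10, on the same strand, while Mpo lies on chromosome 11 and Ctsg on chromosome 14. In the GENCODE annotation of GRCm38, Mpo has 14 exons and each of the 3 proteases has 5. The 250 bases before each RefSeq start (GRCm38.p6, a different build from the mm9 that the submitters' processing notes name) were searched on both strands for the PU.1 core GAGGAA, the MYB core AACGG, the RUNX core TGTGGT, the C/EBP motif TTNNGCAA and the TATA box TATAAG. The windows of Elane and Prtn3 are shown because they hold 3 of these in 1 order, with the matches in capitals, and the 140 bases up to the start are printed 5′ to 3′ on the plus strand, chr10:79886172-79886311 for Elane and chr10:79879527-79879666 for Prtn3.
Elane: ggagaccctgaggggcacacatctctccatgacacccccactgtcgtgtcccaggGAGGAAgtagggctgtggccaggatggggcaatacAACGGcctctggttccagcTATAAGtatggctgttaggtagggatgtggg
Prtn3: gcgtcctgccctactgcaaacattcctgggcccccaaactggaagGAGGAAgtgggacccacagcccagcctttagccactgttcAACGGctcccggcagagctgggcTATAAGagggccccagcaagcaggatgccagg
In Elane, GAGGAA stood at -85 to -80, AACGG at -50 to -46 and TATAAG at -31 to -26, counted back from the start. In Prtn3 the same letters stood at -95 to -90, -55 to -51 and -32 to -27. GAGGAA was in 23.3% of all 32851 mouse RefSeq windows of this length, AACGG in 14.5% and TATAAG in 6.65%, on either strand. All 3 in this order, as printed, were in 6 windows, 0.0183% of the total, of which 2 were those of Elane and Prtn3. That order was chosen after these windows had been read.

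The windows of Mpo (plus strand, chr11:87793534-87793783) and Ctsg (minus strand, chr14:56102575-56102824) are shown whole for contrast, since their GAGGAA matches lay further from the start.
Mpo: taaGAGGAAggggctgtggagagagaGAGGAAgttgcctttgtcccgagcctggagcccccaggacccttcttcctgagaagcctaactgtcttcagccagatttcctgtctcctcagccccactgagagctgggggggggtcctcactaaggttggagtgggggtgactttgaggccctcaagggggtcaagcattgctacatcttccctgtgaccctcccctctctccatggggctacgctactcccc
Ctsg: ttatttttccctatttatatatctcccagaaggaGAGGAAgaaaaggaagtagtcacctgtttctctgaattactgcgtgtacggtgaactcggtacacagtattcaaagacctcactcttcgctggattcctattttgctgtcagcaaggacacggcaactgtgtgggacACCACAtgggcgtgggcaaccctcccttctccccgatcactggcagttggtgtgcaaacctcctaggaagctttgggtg
Mpo had GAGGAA at -247 to -242 and at -224 to -219 and no other match. Ctsg had GAGGAA at -216 to -211 and the RUNX core, read on the other strand as ACCACA, at -79 to -74. TGTGGT was in 14.05% and TTNNGCAA in 9.56% of all windows, and none of the 4 windows held TTNNGCAA. No 2 matches overlapped. G and C made up 59.2% of the window of Mpo, 47.6% of Elane, 60.4% of Prtn3 and 48.8% of Ctsg. These are letters found in a window, and no binding was measured.

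Levels are RPKM, reads scaled to exon length in kilobases and to the total reads of the library, so genes can be set beside each other. The RPKM values step in whole reads, which gave back the reads: 322837 and 157797 in day 0 libraries II and III, 1365635 and 3852628 in day 4 libraries I and II, and 16149088 and 10951745 in day 7 libraries III and IV. On a gene of 1 kb, a single read amounted to 3.10 and 6.34 RPKM in the day 0 libraries, 0.732 and 0.260 RPKM in those of day 4, and 0.0619 and 0.0913 RPKM in those of day 7. Markers met the labels only in part. Day 4 libraries held the neutrophil granule gene Ngp at 14702 and 11460 RPKM, beside Cd34 at 11.6 and 6.13 RPKM and Kit at 8.34 and 18.1 RPKM. Day 7 libraries held the antigen presentation gene Cd74 at 1814 and 1932 RPKM and the macrophage gene C1qb at 1634 and 1813 RPKM. Zbtb46, a transcription factor of conventional dendritic cells, stood at 0.0288 and 0.0283 RPKM. Other dendritic cell markers were mixed. H2-Ab1 was at 666 and 730 RPKM, while the median of the 12 listed was 3.33 and 6.86 RPKM in day 7 libraries III and IV. Of the 12 listed, Cd74, H2-Ab1 and Bst2 were called higher at day 7 than at day 4 by the test given below, and 0 were called lower. That test called 5.85% of all genes higher and 6.75% lower. At day 7 against day 0 it called 4 of the 12 higher and 3 lower, beside 11.3% and 29.3% of all genes.

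The 4 granule enzyme mRNAs were detected in every day 0 and day 4 library, and at day 7 only Elane had any read, in 1 library. Elane, the elastase, had 2774 and 241 RPKM in day 0 libraries II and III, 835 and 1119 RPKM in day 4 libraries I and II, and 0.538 and 0 RPKM in day 7 libraries III and IV. The 0.538 RPKM rests on 8 reads, and both day 4 values lay between the pair at day 0. Mpo had 1860 and 339 RPKM in the day 0 pair, 447 and 641 RPKM in the day 4 pair, and no read in either day 7 library. Its day 4 values, too, lay within the day 0 range, and the day 0 library II was the highest of the 6.

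Prtn3, whose product is the target of many autoantibodies in human vasculitis, had 504 and 103 RPKM in day 0 libraries II and III, 108 and 155 RPKM in day 4 libraries I and II, and no read at day 7. Ctsg, a protease with chymotrypsin-like activity, was the lowest of the 4, with 136 and 12.6 RPKM in the day 0 pair, 43.1 and 62.4 RPKM in the day 4 pair, and no read at day 7. The Ctsg value in day 0 library III rests on 2 reads, and its exact Poisson 95% interval runs between 1.53 and 45.7 RPKM. In that library Prtn3 rests on 19 reads (62.1 to 161 RPKM), Elane on 35 (168 to 335 RPKM) and Mpo on 136 (284 to 400.4 RPKM). All these intervals cover counting error only, since reads without molecular identifiers can be copies of 1 molecule.

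**Figure D1:**
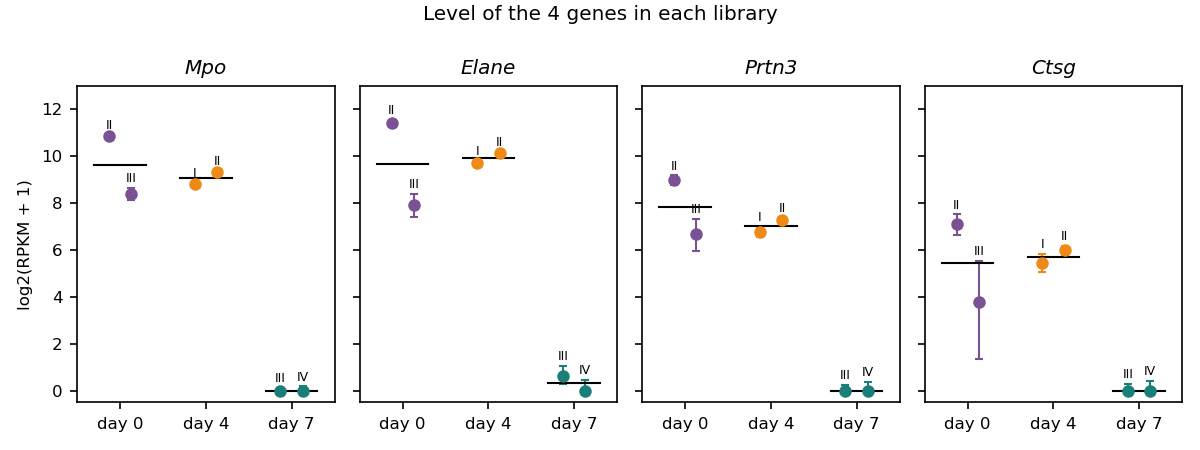
Levels of Mpo, Elane, Prtn3 and Ctsg (1 panel each) as log2(RPKM + 1) in each library at day 0, day 4 and day 7, with replicate numbers above the points; bars are exact Poisson 95% intervals of the reads and black lines the mean of each pair. The day 0 libraries stand far apart, the day 4 libraries lie close together between them, and at day 7 all points are at 0 but that of Elane in library III.

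The 4 genes held 0.801% of the reads (95% interval by the exact Clopper-Pearson method, 0.771 to 0.833) and 0.122% (0.105 to 0.140) in day 0 libraries II and III, and 0.208% (0.200 to 0.215) and 0.290% (0.285 to 0.296) in day 4 libraries I and II. In day 7 library III they held 4.95e-05% (2.14e-05 to 9.76e-05), which is 8 reads. In day 7 library IV they held 0 of 10951745 reads, and the interval allows up to 3.37e-05%. By RPKM, Elane ranked 16 and 72 of the 21761 genes in day 0 libraries II and III and 52 and 39 in day 4 libraries I and II. Mpo ranked 25 and 45 at day 0, and 95 and 73 at day 4. Prtn3 ranked 89 and 229 in the day 0 pair and 471 and 364 in the day 4 pair. Ctsg was further down, at 280 and 4613 in the day 0 pair and 1277 and 1003 in the day 4 pair. These libraries are of bulk RNA, so fewer cells of a type and less of the mRNA per cell cannot be told apart.

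Means hide the split at day 0. Mpo averaged 1099 ± 1076 RPKM at day 0, 544 ± 137 RPKM at day 4 and 0 RPKM at day 7 (SD, n = 2 each). Elane averaged 1508 ± 1791 RPKM at day 0, 977 ± 201 RPKM at day 4 and 0.269 ± 0.381 RPKM at day 7. Prtn3 averaged 303 ± 283 RPKM at day 0 and 132 ± 32.8 RPKM at day 4. Ctsg averaged 74.3 ± 87.2 RPKM at day 0 and 52.8 ± 13.7 RPKM at day 4. For all 4 genes the day 0 SD was close to or above the mean. The day 0 library II exceeded library III by 5.495 times for Mpo, 11.5 times for Elane, 4.89 times for Prtn3 and 10.8 times for Ctsg, whereas the higher day 4 library exceeded the lower by 1.34 to 1.45 times for the 4 genes. Mature neutrophil markers moved the same way between the day 0 libraries: the 11 markers summed to 32196 RPKM in library II and 4118 RPKM in library III, and their part in the split was not tested.

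Between day 7 and day 4, all 4 genes fell. Against the day 4 mean, day 7 Mpo was at least 12511-fold lower, Prtn3 at least 1389-fold lower and Ctsg at least 478-fold lower. Each was taken against a floor of 3 reads over both day 7 libraries together. Elane at day 7 was 3045-fold lower than its day 4 mean, with an interval of 1545 to 7052 that covers the counting of its 8 day 7 reads only. No day 7 value of any of the 4 genes overlapped the day 4 values. With 2 libraries a day many genes can separate so, and the share of all genes that did was not counted.

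The test was limma on log2(RPKM + 1), fitted to 19279 genes with at least 1 RPKM in at least 2 libraries, with Benjamini-Hochberg adjustment over all of them and a threshold of 0.05. All 4 genes entered through their day 0 and day 4 values. At day 7 against day 4, the log2 fold change was -9.07 ± 0.71 (SE) for Mpo (limma adjusted p = 0.000331), -9.61 ± 0.96 for Elane (limma adjusted p = 0.000824), -7.03 ± 0.67 for Prtn3 (limma adjusted p = 0.000687) and -5.73 ± 0.91 for Ctsg (limma adjusted p = 0.00612). Limma called 6.75% of all genes lower and 5.85% higher in this comparison, and all genes had a median log2 fold change of -0.81. Among all genes tested, Elane had the change of rank 7 counted from the most negative, Mpo rank 11, Prtn3 rank 31 and Ctsg rank 63. With no reads at day 7 the fitted value depends on the pseudocount and is no bound. Left without day 4 library I, or without day 4 library II, the fit called 0 genes of all in this comparison, the 4 included, while all 4 kept an unadjusted p under 0.05.

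Between day 7 and day 0, all 4 genes fell as well. Against the day 0 mean, day 7 Mpo was at least 25285-fold lower, Prtn3 at least 3202-fold lower and Ctsg at least 673-fold lower. Elane was 4699-fold lower than that mean (2385 to 10884, counting of day 7 reads only). None of these folds covers the split at day 0, where library II exceeded library III by 4.89 times for Prtn3 and 11.5 times for Elane. Against day 0 library III alone each fold would be smaller. The log2 fold change was -9.63 ± 0.71 for Mpo (limma adjusted p = 0.000296), -9.37 ± 0.96 for Elane (limma adjusted p = 0.000809), -7.84 ± 0.67 for Prtn3 (limma adjusted p = 0.00043) and -5.43 ± 0.91 for Ctsg (limma adjusted p = 0.00556). Limma called 29.3% of all genes lower and 11.3% higher here, with an all-gene median of -1.14. Those shares depend on both day 7 libraries: 659 genes were called lower and 796 higher without day 7 library III, and 504 lower and 669 higher without library IV, against 5649 and 2183 with both, and all 4 enzymes were called lower in each fit. The split of 2183 higher and 5649 lower genes became 1211 higher and 930 lower with quantile normalization, and Ctsg then had a limma adjusted p of 0.0533. Both comparisons use the same day 7 libraries.

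Between day 4 and day 0, none of the 4 genes passed the test, and none had an unadjusted p under 0.05. The log2 fold change was -0.57 ± 0.71 for Mpo (limma adjusted p = 0.656), 0.24 ± 0.96 for Elane (limma adjusted p = 0.906), -0.81 ± 0.67 for Prtn3 (limma adjusted p = 0.48) and 0.29 ± 0.91 for Ctsg (limma adjusted p = 0.876). Limma called 1.92% of all genes lower and 3.66% higher, with an all-gene median of -0.40. The sign hung on which day 0 library was kept. Without day 0 library II the log2 fold changes were 0.66 for Mpo, 2.00 for Elane, 0.33 for Prtn3 and 1.95 for Ctsg, with limma adjusted p = 0.0189 for Elane and 0.04 for Ctsg. Without day 0 library III they were -1.80 for Mpo, -1.52 for Elane, -1.95 for Prtn3 and -1.37 for Ctsg, with limma adjusted p = 0.0215 for Mpo and 0.0219 for Prtn3. Each of these fits takes the lone day 0 library to vary like the other groups.

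**Figure D2:**
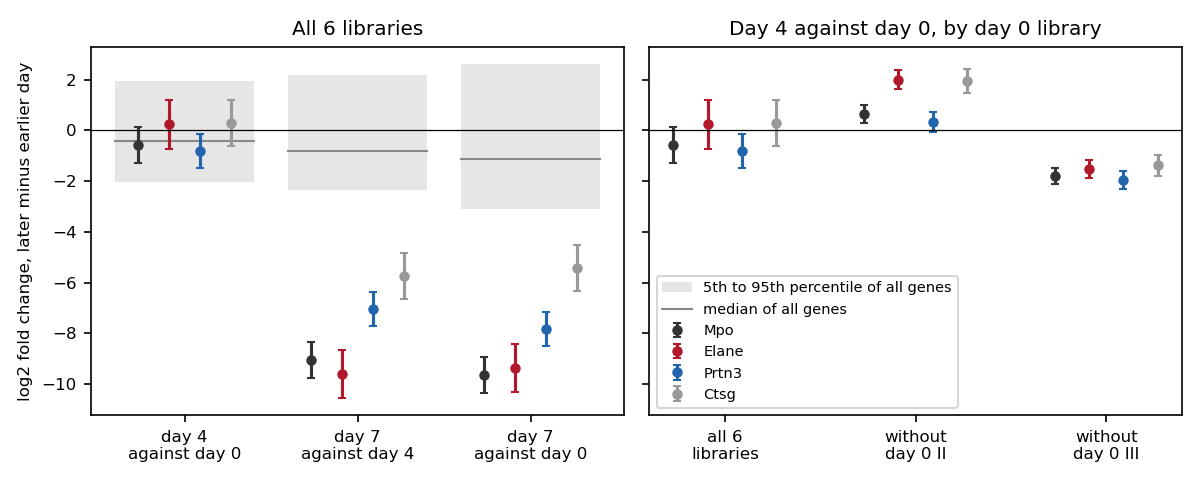
Log2 fold change (later minus earlier day, log2(RPKM + 1), bars are SE) of the 4 genes in the 3 comparisons beside the median and the 5th to 95th percentile of all genes (left), and for day 4 against day 0 without each day 0 library (right). In both day 7 comparisons the 4 genes lie below the 5th percentile of all genes, while at day 4 against day 0 all 4 genes lie above 0 without library II and below 0 without library III.

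Within a library the 4 levels kept some ratios and not others. Elane stood above Mpo, Mpo above Prtn3 and Prtn3 above Ctsg in day 0 library II and both day 4 libraries, and Mpo stood above Elane in day 0 library III. The ratio of Mpo to Prtn3 was 3.69 (exact 95% interval 3.17 to 4.32) and 3.28 (2.02 to 5.62) in day 0 libraries II and III, and 4.12 (3.52 to 4.85) and 4.14 (3.82 to 4.48) in day 4 libraries I and II. The ratio of Elane to Ctsg was 20.4 (15.1 to 28.3) and 19.1 (4.90 to 164) in the day 0 pair, and 19.4 (14.9 to 25.6) and 17.9 (15.7 to 20.5) in the day 4 pair. The intervals of each of these ratios overlapped across the 4 libraries.

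The neighbours Elane and Prtn3 were less alike. Elane exceeded Prtn3 by 5.51 and 2.34 times in day 0 libraries II and III, and by 7.70 and 7.22 times in day 4 libraries I and II. The intervals in day 0 libraries II and III were 4.70 to 6.48 and 1.30 to 4.33. Both lay below those in day 4 libraries I and II, 6.55 to 9.09 and 6.66 to 7.84, by counting error alone. The ratio of Mpo to Elane was 0.671 (0.616 to 0.731) and 1.40 (0.962 to 2.10) in day 0 libraries II and III, and 0.536 (0.495 to 0.580) and 0.573 (0.550 to 0.596) in day 4 libraries I and II. Both day 0 intervals lay above both day 4 intervals, by counting error alone and over 2 libraries a day.

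Genes with the most similar course were sought among 7671 genes by the root mean square difference of centred log2(RPKM + 1) over the 6 libraries from the mean course of the 4. Closest were S100a8 at 0.429, Fcnb at 0.488, S100a9 at 0.604, Lrg1 at 0.705, Pglyrp1 at 0.742, Prg2 at 0.907, Alas2 at 0.962 and Cd24a at 0.986. S100a8 and S100a9 are the subunits of calprotectin, Fcnb is ficolin B, Pglyrp1 is a granule peptidoglycan binding protein, Prg2 is eosinophil major basic protein and Alas2 is the erythroid heme synthesis enzyme. The 4 genes themselves lay at 0.394 for Prtn3, 0.683 for Mpo, 0.776 for Elane and 1.15 for Ctsg. S100a8 had 20102 and 2409 RPKM in day 0 libraries II and III, 10268 and 7097 RPKM in day 4 libraries I and II, and 42.0 and 41.7 RPKM in day 7 libraries III and IV, so unlike Mpo it did not reach 0. With a pseudocount of 10 RPKM, 5 of the 8 genes were again among the closest 8, and S100a8, S100a9 and Alas2 were not.

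**Figure D3:**
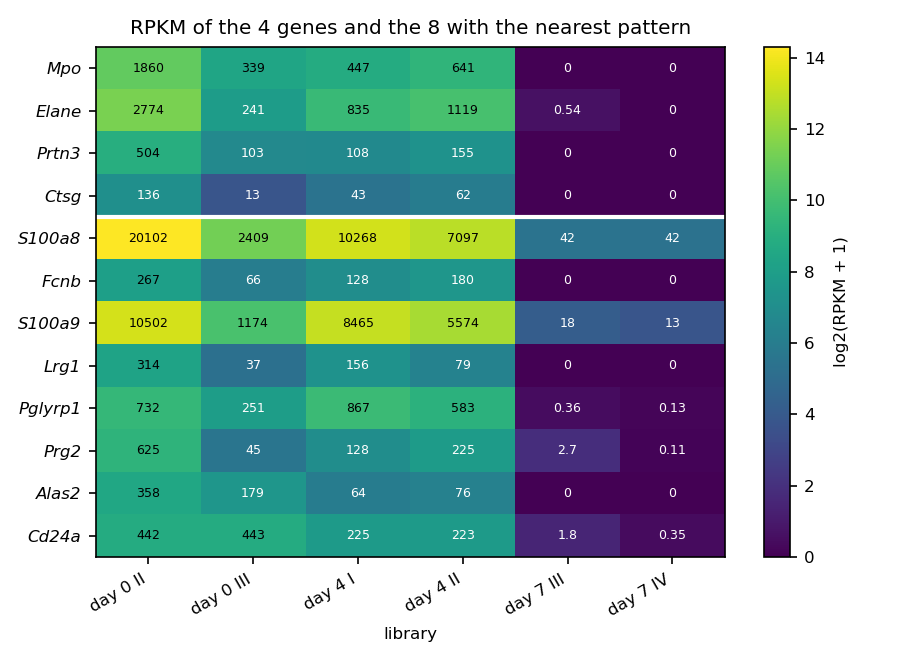
RPKM of the 4 granule enzyme genes (above the white line) and of the 8 genes with the most similar course (below it) in each library, with the value printed in each cell and the colour giving log2(RPKM + 1). Both day 7 columns are the lowest in every row, and the 8 genes were picked for this likeness.

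Other content of the primary granule moved in both directions. Of 10 other content genes, 4 rose and 1 fell at day 7 against day 4, with a median log2 fold change of 1.07 against -0.81 for all genes. Among those that rose were the lysosomal enzymes Gusb and Man2b1 and the lysozyme Lyz1, which macrophages also make. Gusb had 146 and 161 RPKM at day 7, against 9.40 and 18.9 RPKM at day 4 (log2 fold change 3.42 ± 0.45, limma adjusted p = 0.00276). Prss57, a serine protease of the same granule also encoded on chromosome 10, was the one that fell, with 0.383 and 0 RPKM at day 7, against 8.52 and 3.49 RPKM at day 4 (-2.48 ± 0.64, limma adjusted p = 0.0401). Cd63, a granule and lysosome membrane protein, had 2104 and 2058 RPKM at day 7, against 778 and 1129 RPKM at day 4. Its change did not pass the test (1.15 ± 0.81, limma adjusted p = 0.342). At day 4 against day 0, 2 of the 10 rose, Cd63 and Hexa, and none fell.

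The 10 macrophage markers summed to 9969 and 10436 RPKM at day 7, against 69.6 and 54.5 RPKM at day 4. Of the 10, 8 rose and 1 fell, and Apoe alone held 4730 and 4795 RPKM of the day 7 sums. The part of these markers in the rise of the lysosomal genes was not tested.

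Genes that process and pack the granule enzymes stayed measurable at day 7. Of 10 such genes, 2 rose and none fell at day 7 against day 4, with a median log2 fold change of 0.22. Ctsc, which activates the 3 proteases, had 42.7 and 28.5 RPKM at day 7, against 8.29 and 8.03 RPKM at day 4 (1.97 ± 0.47, limma adjusted p = 0.0294). The other was Calr, the chaperone calreticulin (2.41 ± 0.46, limma adjusted p = 0.0129). Srgn, the serglycin core protein, had 325 and 252 RPKM at day 7, against 262 and 260.4 RPKM at day 4 (0.13 ± 0.59, limma adjusted p = 0.867). At day 4 against day 0, Alas1, the first enzyme of heme synthesis outside red cells, rose (2.43 ± 0.45, limma adjusted p = 0.026), while Calr and the last enzyme, Fech, fell.

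Among 11 transcription factors of the promyelocyte stage, 3 fell and 2 rose at day 7 against day 4, with a median of -0.94. Cebpe, required for the step past the promyelocyte, had no read at day 7, against 101 and 146 RPKM at day 4 (-6.93 ± 0.40, limma adjusted p = 0.000149). Myb, a progenitor factor that binds AACGG, had 0.438 and 0.354 RPKM at day 7, against 23.0 and 20.7 RPKM at day 4 (-4.03 ± 0.39, limma adjusted p = 0.000746). Klf5 was the third that fell. Spi1, which encodes PU.1, had 245 and 262 RPKM at day 7, against 218 and 285 RPKM at day 4, overlapping levels (0.02 ± 0.47, limma adjusted p = 0.971). Those that rose were Cebpa (3.26 ± 0.49, limma adjusted p = 0.00494) and Cebpb (5.21 ± 0.58, limma adjusted p = 0.00134). Gfi1, a repressor mutated in some congenital neutropenias, had no read at day 7, against 2.72 and 3.79 RPKM at day 4, and did not pass the test (-2.08 ± 0.61, limma adjusted p = 0.0623).

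Of the 10 surface and secreted genes of that stage, 5 fell and 2 rose at day 7 against day 4, with a median of -2.22. Fcnb had no read at day 7, against 128 and 180.4 RPKM at day 4 (-7.26 ± 0.61, limma adjusted p = 0.000449). Hp, Nkg7, Igsf6 and Ms4a3 fell too, and Fcgr1 and Clec12a rose. Among the 12 congenital neutropenia genes, Csf3r, the G-CSF receptor, fell, and Hax1 and Jagn1 rose. Csf3r changed by -2.94 on the log2 scale (limma adjusted p = 0.011).

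Protease inhibitors, listed whether or not they act on the 3 granule proteases, split. Of 14 tested of 16 listed, 5 fell and 4 rose at day 7 against day 4, with a median of -1.07. Serpinb1a, a cytosolic inhibitor of elastase, proteinase 3 and cathepsin G, had 0 and 2.86 RPKM at day 7, against 227 and 163 RPKM at day 4 (-6.62 ± 0.70, limma adjusted p = 0.00106). Slpi, a secreted inhibitor of elastase and cathepsin G, had 35.9 and 32.8 RPKM at day 7, against 579.6 and 272 RPKM at day 4 (-3.50 on the log2 scale, limma adjusted p = 0.0081). Wfdc21, Stfa1 and Stfa2 were the others that fell. Serpinb6a, which inhibits cathepsin G, had 149.6 and 162 RPKM at day 7, against 8.44 and 3.60 RPKM at day 4 (4.57 ± 0.45, limma adjusted p = 0.000746). Wfdc17, Serpinb6b and Serpinb9 rose as well. At day 4 against day 0, Slpi and Stfa2 were called higher and none of the 14 fell. The call of Stfa2 sets 4 and 11 reads at day 4 against no read at day 0, where the libraries are too shallow to show such a level.

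Genes of later neutrophil stages fell at day 7 with the 4 enzymes. Of 12 secondary and tertiary granule genes, 11 fell at day 7 against day 4, with a median log2 fold change of -9.46, and Cybb was the one that did not pass. Ltf, lactoferrin, changed by -11.58 (limma adjusted p = 0.000106) and Ngp by -13.00 (limma adjusted p = 0.000274). Of 11 mature neutrophil markers, 9 fell, and Cxcl2, a chemokine that macrophages also make, rose. These 11 summed to 617 and 463 RPKM at day 7, against 21676 and 13884 RPKM at day 4, and their part in the fall of the 4 enzymes was not tested. Of 10 early progenitor markers, 3 fell, Kit and Adgrl4 among them, with Kit at 0.0411 and 0.0505 RPKM at day 7. Ly6a of the same list stood higher, at 333 and 355 RPKM at day 7 against 41.0 and 8.34 RPKM at day 4. Its change did not pass the test (4.12 ± 1.24, limma adjusted p = 0.067).

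At day 4 against day 0, later-stage genes and the 4 enzymes differed in their calls. Of the 12 secondary and tertiary granule genes, Olfm4, Mmp8 and Mmp9 rose and none fell, with a median of 1.57. Olfm4 had 180.4 and 128 RPKM at day 4, against 13.2 and 19.3 RPKM at day 0, so its groups did not overlap, as those of the 4 enzymes did. Whether these changes differed from those of the 4 enzymes was not tested. Red cell markers, at 1653 and 1778 RPKM in sum at day 4 against 31760 and 19977 RPKM at day 0, were lower in 8 of 9 genes, and their part in the day 4 levels was not tested.

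**Figure D4:**
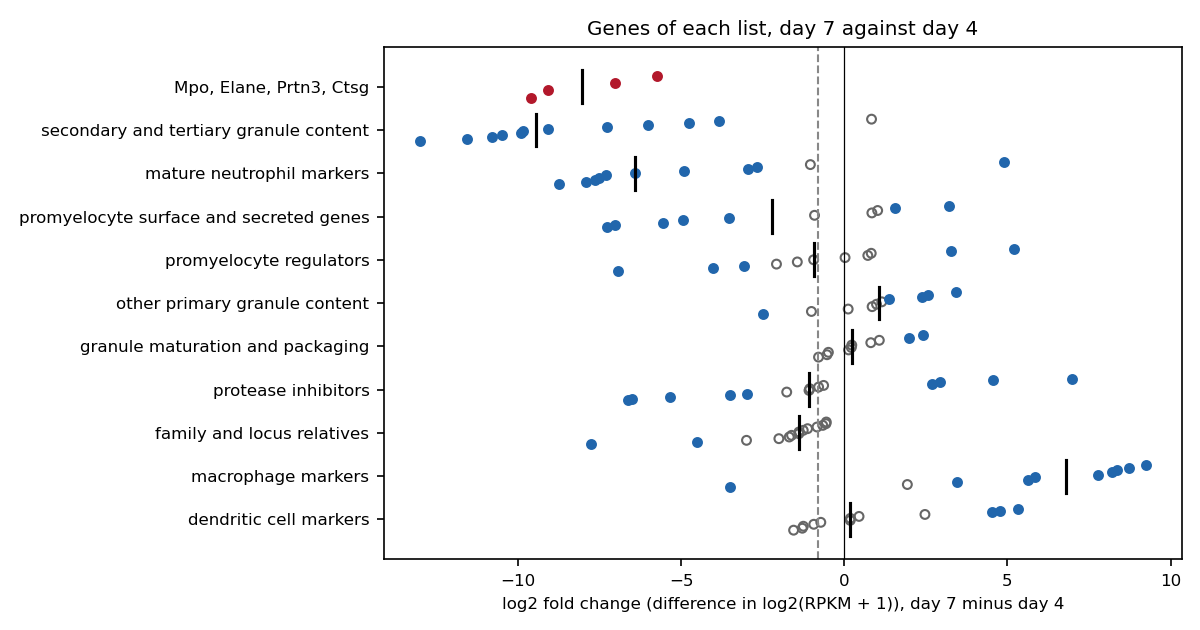
Log2 fold change on log2(RPKM + 1) at day 7 against day 4 of each gene tested, 1 row per list, with filled points for limma adjusted p under 0.05 and open points for the rest; black ticks are list medians, the dashed line is the all-gene median of -0.81 and the 4 granule enzymes are red. The 4 enzymes lie in the range of the secondary granule and mature neutrophil genes, and other primary granule content lies on both sides of the dashed line.

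Genes next to the 4 enzymes on their chromosomes were mixed at day 7. Lpo, Epx, Misp, Cfd, Mcpt8, Mcpt4, Mcpt9, Gzmd and Gzmg had no read in either day 7 library, as Mpo, Prtn3 and Ctsg had none, but most were low at day 0 and day 4 as well. Lpo, the lactoperoxidase gene that follows Mpo, had 2.75 and 0.266 RPKM at day 4, against 2.12 and 8.66 RPKM at day 0. Cfd, which follows Elane and encodes the serine protease complement factor D, had 8.63 RPKM in day 0 library II, which is 3 reads, and no read in the other 5 libraries. Plppr3, which precedes Prtn3, had 0.746 and 0.035 RPKM at day 7, 5.88 and 7.25 RPKM in the day 4 pair and 7.11 and 4.85 RPKM in the day 0 pair. Ptbp1, a splicing factor gene beyond it, had 53.2 and 47.2 RPKM at day 7, 19.9 and 50.04 RPKM in the day 4 pair and 55.4 and 60.7 RPKM in the day 0 pair. Supt4a, near Mpo, had 164 and 213 RPKM at day 7, against 108 and 106 RPKM at day 4. Ctsg lies in a cluster of mast cell proteases and granzymes. Its neighbour Mcpt8, a basophil protease, had no read at day 7, against 23.9 and 19.8 RPKM at day 4 (-4.51 ± 0.45, limma adjusted p = 0.000847). Of 14 relatives tested of 17 in the table, Mcpt8 and Prss34 fell at day 7 against day 4 and none rose.

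Reads of Elane, Prtn3 and Ctsg could be placed by sequence: 0 of their 30-base words in coding transcripts occurred in another gene of the GENCODE annotation. For Mpo, 433 of 3116 words (13.9%) did, and the antisense gene Gm11505 overlaps its exons. Whether strand was used in the counting is not stated in the sources used here, so in the overlapping stretch reads of Mpo and of Gm11505 cannot be told apart.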

How the data were processed

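Sequencing libraries were made from total RNA (Qiagen RNeasy) with SMARTer v3 Ultra Low Input reagents and then the NexteraXT kit, per the labels' protocols. The authors deposited 1 table with RPKM and exon length per gene. Per the submitters' processing notes, mm9, TopHat2 2.0.13 and SAMtools 1.1 were used. The counter, annotation and strand setting are absent from the sources used here. The columns of all 6 libraries were used, and 0 others were left out.

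From the deposited RPKM values, reads were rebuilt as RPKM × exon length over the 1-read step. They came within 5.41e-05 of a whole read throughout. Genes with at least 1 RPKM in at least 2 libraries (19279) were tested on log2(RPKM + 1) with limma 3.58.1 (R 4.3.3, 3 group means, mean-variance trend, two-sided, Benjamini-Hochberg). The procedure was run on simulated reads for day 7 against day 4 only. The simulation gave every library the same spread, so it cannot speak for the split at day 0. Exact permutation of 2 against 2 libraries cannot reach 0.05. RPKM is no count, so no count model gave a main result, and voom on the rebuilt reads was an alternative. Depth sets precision: totals ran from 157797 to 16149088 reads, so shares, intervals and the 3-read floor cover counting error only.

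Members and lists were chosen with earlier results of these data known. The text names the 4 members, up to 4 genes of each list by mean RPKM, up to 2 per comparison by adjusted p, and the 8 genes most like the members. Other genes it names (Man2b1, Prss57, Klf5, Ms4a3, Gfi1, Cebpa, Serpinb6b, Serpinb9, Stfa1, Mmp9, Cybb, Zbtb46, Cfd, Lpo, Misp, Mcpt9, Gzmd, Gzmg, Plppr3, Ptbp1 and Supt4a) were chosen after their values were seen. Alternatives were another filter, pseudocount, scaling or model, and each library left out. Figures were drawn with matplotlib 3.10.9.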

Additional observations from a re-analysis of the deposited data

How the results depend on the processing

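No paired analysis was possible because day 0 and day 4 share only replicate number II, day 0 and day 7 only III, and day 4 and day 7 none. Fold changes of the 4 genes and counts of calls were recomputed under 17 alternatives, group means and the genes with the most similar course under 1, and list counts, ratios and day 7 bounds under none. At day 7 against day 4 the direction held in all 17 for the 4 genes, and the call in 15 for Mpo, Elane and Prtn3 and in 12 for Ctsg. At day 7 against day 0 the call held in 17 for Mpo, Elane and Prtn3 and in 13 for Ctsg. Leaving out 1 library at a time, the day 4 against day 0 log2 fold change ran between -1.80 and 0.66 for Mpo and between -1.52 and 2.00 for Elane. It ran between -1.95 and 0.33 for Prtn3 and between -1.37 and 1.95 for Ctsg. The sign also turned for Elane with quantile normalization (-0.26) and for Ctsg with voom on rebuilt reads (-0.081), and the cause was not tested. Ctsg lost its call at day 7 against day 4 with a pseudocount of 10 RPKM (limma adjusted p = 0.0611), quantile normalization (0.0734) and thinning to the smallest library (0.0828). Fitted day 7 against day 4 changes of Mpo ran between -15.17 and -5.77 over the 17. Quantile normalization moved the all-gene median at day 4 against day 0 to -0.04, at day 7 against day 4 to 0.04 and at day 7 against day 0 to -0.01. Median ratio scaling moved it to -0.29, -0.70 and -0.96 in the same order. Counts over all genes depended more on the setting: genes lower at day 7 against day 4 numbered 1301, but 10392 by voom, 2846 with a pseudocount of 0.1 RPKM and 483 with quantile normalization, and genes higher numbered 1127, but 2396, 1150 and 495. Without day 7 library III or IV, limma called 447 or 334 genes lower and 374 or 288 higher at day 7 against day 4. Genes higher at day 4 against day 0 numbered 705, but 0 with array weights, 116 by voom and 148 without the mean-variance trend. Day 0 depth limits Ctsg most.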

Other observations

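Prss34, a basophil protease, had 232 and 439 RPKM in day 4 libraries I and II, against 30.6 and 0 RPKM in day 0 libraries II and III, and it was called higher at day 4. It had 1.17 and 0 RPKM at day 7, a log2 fold change of -7.76 against day 4 (limma adjusted p = 0.00847). Epx, the eosinophil peroxidase and a neighbour of Mpo on chromosome 11, had 1.90 and 4.53 RPKM at day 4, against 24.2 and 9.42 RPKM at day 0, a difference that did not pass the test (limma adjusted p = 0.104). Its day 7 libraries held no read, and at day 7 against day 0 the log2 fold change was -4.02 (limma adjusted p = 0.00453).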
